A study of Mus musculus with 24 samples.

Results

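Regulatory T cells (Treg) sorted from liver were compared with Treg sorted from peripheral blood mononuclear cells (PBMC), with 3 libraries on each side. The comparison was made over every gene that had a deposited normalized count of at least 10 in at least 3 of these 6 libraries, which kept 16978 of the 35612 genes in the table. The cells came from male C57BL/6 mice aged 5 months that carry the Foxp3Thy1.1 reporter, in which the Thy1.1 surface protein marks cells that express Foxp3, and each library was a pool of 3 mice. CD4+ cells were enriched by positive selection and then sorted as live CD45+ TCRβ+ CD4+ cells lacking NK-1.1, CD8α and CD1d tetramer binding, with Foxp3+ cells taken as Treg and Foxp3− cells as conventional T cells (Tconv). All groups share this strain, sex, age and sort, and no group received a treatment according to the labels. The whole series holds 24 libraries, from Treg and Tconv of liver, liver-draining lymph node (LDLN), PBMC and spleen, with 3 libraries per group. Whether liver and blood pools of equal number share animals is not stated in the labels. For each gene, the main fit takes its spread from the libraries within all 8 groups. Its p-values therefore do not rest on the liver and PBMC Treg libraries alone. That spread is among pooled libraries and not among single mice.

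Treg are CD4+ T cells whose identity depends on the transcription factor Foxp3 and which restrain other immune cells through surface receptors such as CTLA-4 and through cytokines such as IL-10. Those that live in organs outside the lymphoid system are known to carry a program of their own, with tissue repair factors such as amphiregulin, chemokine receptors such as CCR8 and markers of recent activation, whereas Treg in blood are in transit and rely on homing receptors such as CCR7. Signals through the T cell receptor, and also the handling of tissue during cell isolation, are known to induce immediate early genes, which encode short-lived transcription factors and the phosphatases and RNA-binding proteins that shut the response off.

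The 6 libraries held between 19400650 and 22541466 recovered reads. Of 10 genes that describe the sort, 1 was called different between the tissues, a share not far from the 15.2% of all genes called. Cd4 held 13359, 13556 and 14487 in the liver and 14862, 12563 and 13208 in the PBMC libraries (values per library are normalized counts throughout, in the order of the library numbers), with a log2 difference of 0.03. Foxp3 held 1513, 1402 and 1805 in the liver and 1824, 2227 and 1911 in the PBMC libraries. Every liver library was below every PBMC library, yet the difference did not pass (log2 -0.34, SE 1.34, limma adjusted p = 0.897). That fit shares 1 spread over all 8 groups, and Foxp3 was uneven among the Tconv libraries. In the limma fit of only the liver and PBMC Treg libraries the difference did not pass either (SE 0.13, adjusted p = 0.15). The gene called was Klrb1c, which encodes the NK-1.1 antigen that the sort excluded, with 37.6, 158 and 156 in the liver and 11.3, 16.1 and 18.4 in the PBMC libraries. PBMC Treg 1 differed most from its own group, with 2023 genes more than 1 log2 unit from the mean of the other 2 PBMC libraries. Of these, 1667 were below that mean and 356 above it. In the other libraries the same count was between 600 (Liver Treg 2) and 1557 (Liver Treg 1). PBMC Treg 1 had 21869 genes above 0, beside 27299 in PBMC Treg 2 and 27697 in PBMC Treg 3. In bulk libraries such as these, fewer cells of a type and less RNA per cell cannot be told apart.

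A gene was called where the limma test, run across all 24 libraries on log2(normalized count + 1), gave a Benjamini-Hochberg adjusted p under 0.05. In liver Treg, 2588 of the 16978 genes were called against PBMC Treg (15.2%), of which 1245 were higher (7.33%) and 1343 were lower (7.91%). The increases were the larger ones: 573 called genes were higher and 318 lower by at least 1 log2 unit, and 183 were higher and 60 lower by at least 2. The median difference over all 16978 genes was 0.04, and the median SE was 0.195. The 3 liver libraries lay wholly above or wholly below the 3 PBMC libraries in 29.3% of all genes and in 2460 of the 2588 called. Without PBMC Treg 1 the test called 1509 genes (801 higher and 708 lower), without Liver Treg 2 it called 1627, and when only the 2 groups were fitted it called 1392. A test that asked for a change larger than 1 log2 unit kept 85 genes, 68 higher and 17 lower. At the minimum itself, Adam21, Lama5 and Slc12a5 entered with a third-highest value of 10.078, and Gm13237, Tpbgl and Gm27805 stayed out at 9.652.

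**Figure D1:**
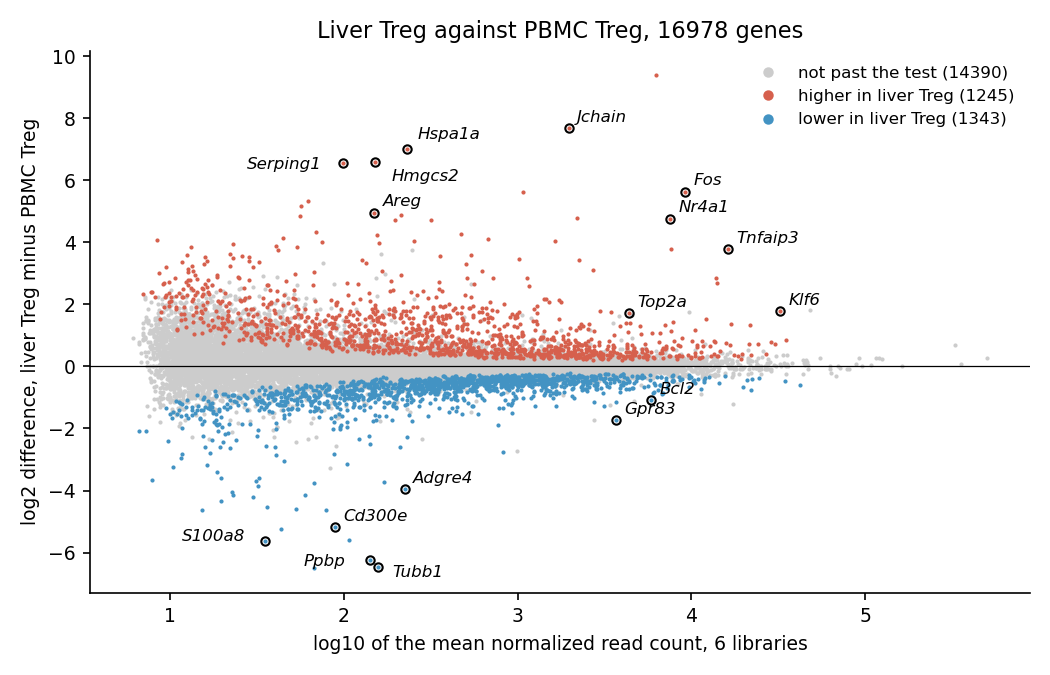
Each point is 1 of the 16978 genes. The horizontal axis is the log of its mean normalized count over the 6 libraries. The vertical axis is the liver minus PBMC Treg log2 difference. The 1245 genes called higher reach further from 0 than the 1343 called lower, which lie mostly within 1 log2 unit of it.

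Immediate early transcription factors held some of the largest differences. Coordinates of genes are on GRCm38 (GENCODE M21). In the AP-1 family, Fos and Jun proteins pair to bind DNA. Of 13 genes of this family and related factors, 8 were higher and 1 (the related factor Nfe2l2) was lower. Their median log2 difference was 2.2 beside 0.04 for all genes. Among 21 genes of the EGR and NR4A families and other immediate early genes, 16 were higher and 1 (Myc) was lower, with a median of 2.02. A further 3 AP-1 genes and 2 EGR genes were under the minimum level and were not tested here. The counts higher stood between 8 and 9, and between 15 and 17, when any 1 of the 6 libraries was left out. The call of Nfe2l2 was lost in 7 of 18 alternatives, among them without Liver Treg 1, Liver Treg 2 or PBMC Treg 1 and in the fit of only the 2 groups.

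The promoters of Fosb, Nr4a1, the phosphatase gene Dusp1 and Areg, which had the largest difference among the tissue Treg genes, hold short motifs that CREB and EGR factors are known to bind. They are shown so that the motifs can be seen in place, 5′ to 3′ over the 250 bases before the start site of the RefSeq gene model (GRCm38.p6), with the motifs in capitals. In Areg (chr5:91139349-91139598, plus strand) the cyclic AMP response element TGACGTCA begins 61 bases before the start and the TATA box TATAAA 31 bases before it. In Dusp1 (chr17:26508473-26508722, minus strand) the cyclic AMP response element begins 143 bases before the start. In Fosb (chr7:19310046-19310295, minus strand) the EGR motif GCGGGGGCG begins 50 bases before the start. In Nr4a1 (chr15:101266596-101266845, plus strand) the same motif lies on the opposite strand, 60 bases before the start.
Areg: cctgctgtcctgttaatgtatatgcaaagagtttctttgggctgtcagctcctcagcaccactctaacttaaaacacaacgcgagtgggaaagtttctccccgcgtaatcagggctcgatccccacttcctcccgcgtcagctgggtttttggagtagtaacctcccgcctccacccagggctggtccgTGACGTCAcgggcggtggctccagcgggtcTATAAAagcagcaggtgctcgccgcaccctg
Dusp1: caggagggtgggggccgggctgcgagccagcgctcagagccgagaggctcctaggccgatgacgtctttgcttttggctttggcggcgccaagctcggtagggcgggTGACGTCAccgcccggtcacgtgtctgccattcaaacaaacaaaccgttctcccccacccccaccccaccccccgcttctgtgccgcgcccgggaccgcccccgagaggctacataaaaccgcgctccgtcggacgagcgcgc
Fosb: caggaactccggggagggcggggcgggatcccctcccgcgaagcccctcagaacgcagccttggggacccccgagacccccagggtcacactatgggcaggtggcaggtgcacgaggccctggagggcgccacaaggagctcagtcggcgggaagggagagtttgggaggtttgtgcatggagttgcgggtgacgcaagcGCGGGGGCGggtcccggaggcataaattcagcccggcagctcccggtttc
Nr4a1: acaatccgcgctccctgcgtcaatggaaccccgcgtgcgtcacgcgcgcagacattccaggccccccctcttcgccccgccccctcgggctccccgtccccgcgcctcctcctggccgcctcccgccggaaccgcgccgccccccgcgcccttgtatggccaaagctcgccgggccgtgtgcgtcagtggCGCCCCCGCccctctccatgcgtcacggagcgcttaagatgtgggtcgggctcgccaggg
Searched on both strands over the same 250 bases, TGACGTCA was in 1.55% of all 32817 promoters, in 2.44% of those of all genes compared here, in 3.31% of those of genes higher in liver Treg and in 1.52% of those of genes lower. The immediate early, AP-1, EGR, NR4A and phosphatase genes called higher that had a RefSeq promoter were 24 genes with 33 promoters, so some genes count more than once. TGACGTCA was in 4 of these 33 promoters (Btg2, Dusp1, Maff and Ppp1r15a). The EGR motif GCGGGGGCG was in 2.57% of all promoters, in 4.26% of those of all genes compared here, in 4.65% of those of genes higher, in 4.49% of those of genes lower and in 6 of the 33 (Dusp2, Fosb, Fosl2, Klf4, Nr4a1 and Zfp36). The AP-1 motif TGANTCA was in 6.75% of all promoters, in 4.78% of those of all genes compared here and in 1 of the 33. These are matches of letters and no binding was measured.

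Fos (chr12:85473890-85477273), the partner of Jun in the AP-1 dimer, held 18734, 18801 and 16679 in the liver and 428, 495 and 225 in the PBMC libraries. Every liver library was far above every PBMC library, a 49.6-fold difference (log2 5.63, SE 0.26, limma adjusted p = 3.99e-12). Fosb, a close relative that forms the same dimers, held 2513, 2087 and 1738 in the liver and 81.3, 47.4 and 18.4 in the PBMC libraries. Its groups did not overlap either, and the PBMC libraries differed among themselves by more than the liver libraries did (log2 5.62, SE 0.46, adjusted p = 5.69e-08). Jun held 2623, 3054 and 3537 in the liver and 339.5, 139 and 131 in the PBMC libraries, with PBMC Treg 1 the highest of the blood libraries. Junb held 1969, 1815 and 1828 in the liver and 153, 188 and 164 in the PBMC libraries and was even within each tissue. The log2 differences were 4.05 for Jun, 3.47 for Junb, 1.76 for Jund and 4.33 for the stress-induced factor Atf3.

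Egr1, a zinc finger factor induced within minutes of stimulation, held 1176, 1308 and 1375 in the liver and 83.2, 71.6 and 66.6 in the PBMC libraries. The liver libraries were all higher and the groups lay far apart (log2 4.11, SE 0.18, adjusted p = 3.99e-12). Nr4a1 (chr15:101254269-101274795), the orphan nuclear receptor Nur77 that is used as a readout of T cell receptor signalling, held 14791, 12498 and 16146 in the liver and 683, 414 and 522 in the PBMC libraries. This was a 27.2-fold difference with no overlap (log2 4.77, SE 0.24, adjusted p = 2.06e-11). Its relatives Nr4a2 and Nr4a3 were higher by 4.71 and 3.43 on the log2 scale. Klf4 and Klf6, Krüppel-like factors that restrain proliferation in several cell types, were higher by 2.72 and 1.78. Myc, a regulator of cell growth among the immediate early genes, went the other way with 1676, 2039 and 2887 in the liver and 3713, 3087 and 3805 in the PBMC libraries (log2 -0.72, adjusted p = 0.00668), a call lost without Liver Treg 1.

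**Figure D2:**
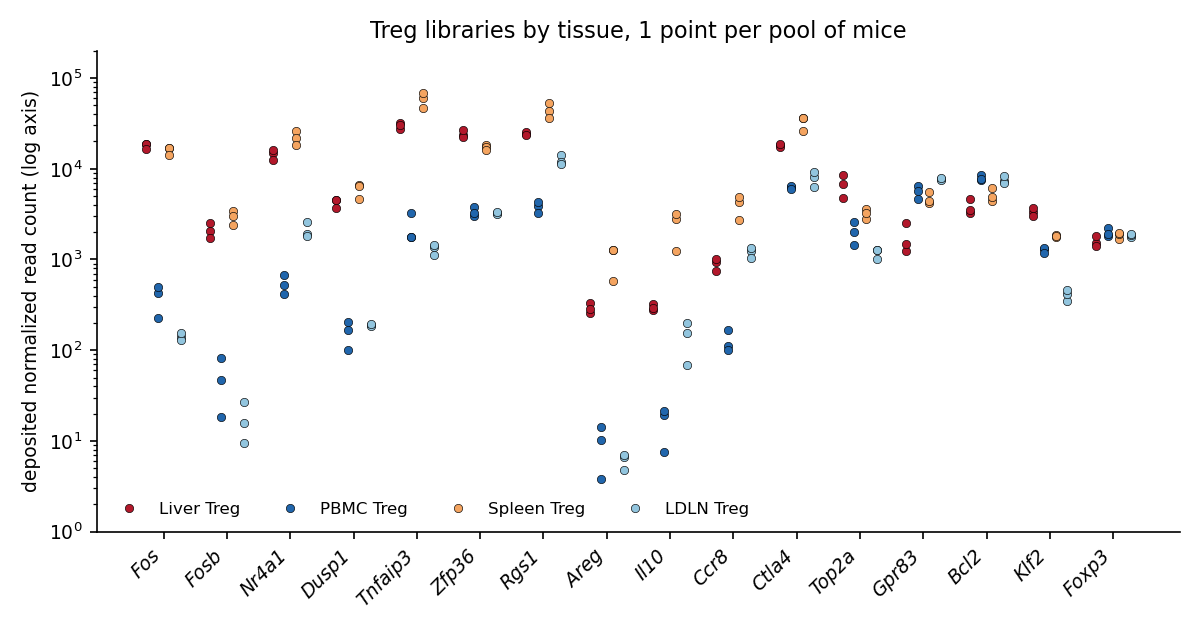
Normalized count on a log axis for 16 genes, with 1 point per library for Treg of liver, spleen, LDLN and PBMC. Fos, Fosb, Nr4a1, Dusp1, Areg and Il10 are separated between liver and PBMC with no overlap, and in Foxp3 the liver points lie just below the PBMC points.

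Some genes whose products end such a response were also higher. Of 11 genes for dual specificity phosphatases, which remove the activating phosphates from MAP kinases, 5 were higher, 0 were lower and 6 did not pass. Dusp1 held 4486, 4552 and 3654 in the liver and 168, 204 and 100.4 in the PBMC libraries, with every liver library above every PBMC library (log2 4.79, SE 0.29, adjusted p = 3.93e-10). Dusp10, which acts on the stress kinases p38 and JNK, held 2781, 2399 and 3294 in the liver and 642, 641 and 638 in the PBMC libraries and was close to constant among the blood libraries (log2 2.13). Dusp6, which acts on ERK, did not pass with 574, 479.7 and 672 in the liver and 622, 371 and 522 in the PBMC libraries, and its groups overlapped (adjusted p = 0.514).

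Of 15 genes for factors that shorten the life of messenger RNA, 8 were higher and 2 (Zc3h12b and Rc3h1) were lower. Zfp36, which encodes tristetraprolin, held 23701, 22408 and 26962 in the liver and 3790.5, 3004 and 3293 in the PBMC libraries. It was higher in every liver library (log2 2.86, SE 0.15, adjusted p = 4.5e-11), and its relatives Zfp36l1 and Zfp36l2 were higher by 0.97 and 1.31. Btg1 and Btg2, which recruit the deadenylase and are known to hold T cells in quiescence, were higher by 1.34 and 1.36. Rc3h1, which encodes Roquin-1, held 2509, 2628 and 2899.5 in the liver and 3334, 3381 and 2918 in the PBMC libraries, a small difference (log2 -0.26) whose call was lost without Liver Treg 1, Liver Treg 2, PBMC Treg 1 or PBMC Treg 2.

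Of 18 genes for NF-κB subunits, inhibitors and targets, 8 were higher and 0 lower, and 5 were higher without Liver Treg 3 or without PBMC Treg 2. Tnfaip3 (chr10:19000910-19015657), which encodes the inhibitor A20, held 32338, 27317 and 30737 in the liver and 1784, 3228 and 1778 in the PBMC libraries. The liver libraries were all above the blood libraries, of which PBMC Treg 2 was the highest (log2 3.79, SE 0.24, adjusted p = 1.11e-09). The inhibitors Nfkbia, Nfkbid and Nfkbiz were higher by 1.35, 2.07 and 1.30 on the log2 scale. Among the subunits, Rel was higher by 1.18, while Nfkb1 and Rela did not pass, with differences of 0.24 and -0.01.

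Spleen Treg and LDLN Treg give the levels of these genes in the 2 other tissues of the series. Their comparisons with PBMC Treg use the same 3 PBMC libraries as the liver comparison, so the values are given side by side only. For AP-1 genes the median log2 difference from PBMC Treg was 2.2 in liver, 3.71 in spleen and -0.25 in LDLN. For EGR, NR4A and immediate early genes it was 2.02, 3.05 and 0.50, and for the phosphatases 1.46, 4.00 and 0.36. The mean normalized count of Fos was 18071 in liver, 16059.9 in spleen and 140.5 in LDLN. Egr1 did not follow that order, with 1038 in LDLN beside 1286 in liver and 969 in spleen. Whatever differed between the isolation of cells from liver and from blood goes with tissue and cannot be told apart from it in this design.

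Cell division genes were higher in liver Treg. All 20 mitosis genes listed were higher, with a median of 1.66 (range 1.40 to 2.18). Top2a, which untangles DNA before division, held 4718, 8558 and 6822 in the liver and 1445, 2023 and 2599 in the PBMC libraries. The groups did not overlap, and Liver Treg 1 was the lowest liver library (log2 1.73, SE 0.26, adjusted p = 0.000105). Mki67, which encodes the proliferation antigen Ki-67, held 5182, 7969 and 6163 in the liver and 1726, 2540.5 and 3159.8 in the PBMC libraries, again with Liver Treg 1 lowest and without overlap (log2 1.40, adjusted p = 0.00459). The mitotic cyclin Ccnb1 and the kinase Aurkb were higher by 1.88 and 1.92. Between 17 and 20 of the 20 were higher when a library was left out, with 17 without PBMC Treg 1, and 0 passed the test for more than 1 log2 unit.

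Of 22 DNA replication genes, 18 were higher and 0 lower, with a median of 0.80. Pcna, the sliding clamp of the polymerases, held 1802, 2173 and 2312 in the liver and 991, 1056 and 1201 in the PBMC libraries, without overlap (log2 0.95, SE 0.12, adjusted p = 1.56e-05). Pola1, a subunit of the polymerase that primes replication, held 1221, 1254 and 1204 in the liver and 755, 642 and 730.5 in the PBMC libraries and was even within each tissue (log2 0.79). The cyclin Ccne1 had the opposite sign and did not pass, with 93.6, 122 and 123 in the liver and 162, 174 and 161 in the PBMC libraries (adjusted p = 0.0863). Without PBMC Treg 1 the count of replication genes higher was 10, and in the fit of only the 2 groups it was 11. The median mitosis difference from PBMC Treg was 1.66 in liver, 0.61 in spleen and -1.32 in LDLN, with the same PBMC libraries in each.

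Of 21 genes at the core of Treg identity, 3 were higher and 1 was lower, with a median of -0.04. That is 19% of the list, not far from the 15.2% of all genes called in this fit. In the fit of only the 2 groups, 4 of the 21 were higher and 3 lower, where 1392 of all 16978 genes were called. The reading of this list thus depends on the fit. Ctla4 (chr1:60887000-60915832), which encodes the inhibitory receptor that strips B7 ligands from antigen-presenting cells, held 18183, 17260.4 and 18917 in the liver and 6272, 6392 and 5984 in the PBMC libraries. The groups were far apart and even within each tissue (log2 1.54, SE 0.25, adjusted p = 0.000254). Gpr83, an orphan receptor enriched in Treg, held 1231, 1470.5 and 2529.5 in the liver and 6422, 4699.6 and 5680.2 in the PBMC libraries, with no overlap (log2 -1.74, SE 0.28, adjusted p = 0.000204). Icos and Cd83 were called higher by 0.82 and 1.75. Both calls were lost without Liver Treg 2, Liver Treg 3, PBMC Treg 1 or PBMC Treg 2, and that of Icos also without Liver Treg 1, so the count of core genes higher was 1 when any 1 of those 4 libraries was left out. Il2ra, the IL-2 receptor alpha chain, held 7576, 6608 and 9637 in the liver and 14813, 13728 and 15534 in the PBMC libraries. Every liver library was below every PBMC library, yet the difference did not pass (log2 -0.90, SE 0.44, adjusted p = 0.186), and it passed in the fit of only these 2 groups with an adjusted p of 0.00429. Ikzf2, Nrp1 and Tnfrsf18, which encode Helios, neuropilin-1 and GITR, differed by 0.05, 0.14 and 0.11 and did not pass.

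Genes of the tissue Treg program were higher in part. Of 18 listed, 7 were higher and 0 lower, with a median of 0.79, and in the fit of only the 2 groups 11 were higher. Areg (chr5:91139599-91148432), which encodes the repair factor amphiregulin and whose promoter is shown above, held 329, 258 and 284 in the liver and 3.78, 14.1 and 10.2 in the PBMC libraries. This was a 31.0-fold difference with no overlap (log2 4.96, SE 0.45, adjusted p = 3.35e-07). Il10 (chr1:131019845-131024974), which encodes the suppressive cytokine IL-10, held 276, 320.5 and 292 in the liver and 7.57, 19.2 and 21.5 in the PBMC libraries, with the liver libraries all far above (log2 4.24, SE 0.74, adjusted p = 0.000552). Ccr8 (chr9:120092114-120094906), the chemokine receptor of tissue Treg, held 940.1, 1009.9 and 749 in the liver and 111, 99.9 and 165 in the PBMC libraries, again without overlap (log2 2.86, SE 0.27, adjusted p = 4.69e-07). Penk, the enkephalin precursor, and the transcription factors Rora and Irf4 were higher by 1.82, 1.08 and 1.29. Other genes of the program did not pass. Il1rl1, the receptor for the alarmin IL-33, held 3977, 3729 and 3514 in the liver and 2231, 4592 and 3673 in the PBMC libraries, and its groups overlapped. Klrg1, Gata3 and Batf differed by 0.10, 0.26 and 0.71, with adjusted p of 0.894, 0.167 and 0.0597, and Batf passed in 6 of 18 alternatives, among them the fit of only the 2 groups.

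In spleen Treg the mean of Areg was 1041 and in LDLN Treg 6.13, beside 290.2 in liver and 9.38 in PBMC. Il10 had means of 2418 in spleen, 141 in LDLN and 296 in liver, and Ccr8 of 3976, 1208 and 899.8. For these 3 genes the spleen mean was thus the highest of the 4 tissues.

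Other secreted factors were higher beside Areg and Il10. Of 14 cytokine genes, 5 were higher and 1 (Lta, lymphotoxin alpha) was lower. Ifng, the type 1 effector cytokine, held 402, 737 and 295 in the liver and 61.5, 14.1 and 19.5 in the PBMC libraries, with every liver library above the blood libraries (log2 4.05, SE 0.59, adjusted p = 8.62e-05). Tnf and Il2 were higher by 1.14 and 1.43, and Il2 was at low levels in every library and lost its call in the fit of only the 2 groups. Of 10 chemokine genes, 7 were higher and 0 lower, with a median of 3.03. Ccl4, a chemokine that draws T cells and monocytes, held 218, 434 and 564 in the liver and 22.7, 1.01 and 44.1 in the PBMC libraries, uneven in both tissues and without overlap (log2 4.87, SE 0.93, adjusted p = 0.00121). Cxcl10, a ligand of CXCR3, held 402, 277 and 221 in the liver and 14.2, 18.2 and 21.5 in the PBMC libraries (log2 3.96, adjusted p = 6.5e-05). Xcl1 and the neutrophil attractant Cxcl2 were higher by 3.74 and 5.17.

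Of 20 chemokine receptor genes, 6 were higher and 2 were lower, and 0 were lower without Liver Treg 1, PBMC Treg 1 or PBMC Treg 2. Cxcr3, the receptor that draws T cells to interferon-exposed tissue, held 6084, 5879 and 4663 in the liver and 2271, 2191 and 2257 in the PBMC libraries, without overlap (log2 1.30, SE 0.32, adjusted p = 0.00869). Tbx21, which encodes the factor T-bet that controls Cxcr3, held 139.9, 154 and 141 in the liver and 33.1, 42.4 and 33.8 in the PBMC libraries, also without overlap (log2 1.97, adjusted p = 0.00209). Cxcr4 and Ccrl2 were higher by 1.48 and 1.87. Cxcr6, a receptor tied to T cells of the liver sinusoids, held 3296, 3539 and 2993 in the liver and 1913, 1801 and 2197 in the PBMC libraries, and although the groups did not overlap it did not pass (log2 0.74, adjusted p = 0.191), whereas it passed in the fit of only the 2 groups.

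Of 18 genes tied to tissue residency, 8 were higher and 1 (Inpp4b) was lower. Nr4a1, given above among the immediate early genes, is counted in this list too. The median difference from PBMC Treg was 0.92 in liver and 0.45 in spleen. Rgs1, which dampens signalling of chemokine receptors and is a marker of resident T cells, held 24122, 25634 and 23507 in the liver and 3858, 3222 and 4306 in the PBMC libraries. All liver libraries were above the blood libraries (log2 2.70, SE 0.21, adjusted p = 2.03e-08). Its relative Rgs2 was higher by 3.12 in liver Treg and by 4.35 in spleen Treg, against the same PBMC libraries. Cd69, which holds cells in tissue by removing the egress receptor S1PR1, held 14956, 13463 and 15338 in the liver and 6603, 7383 and 5463 in the PBMC libraries (log2 1.18, adjusted p = 0.0001). Itgae, the alpha chain of the integrin CD103, held 3257, 3258 and 2843 in the liver and 3298, 4630 and 4287 in the PBMC libraries and did not pass.

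Of 12 genes of lymphoid homing and egress, 3 were lower and 2 were higher, and 1 was lower without PBMC Treg 1 or without PBMC Treg 2. Ccr7, the receptor for entry into lymph nodes, held 9887, 11248 and 13897 in the liver and 18536, 20035 and 13065 in the PBMC libraries and its groups overlapped (log2 -0.55, adjusted p = 0.0125). That call was lost without PBMC Treg 1, PBMC Treg 2 or Liver Treg 1 and in the fit of only the 2 groups. S1pr1, the egress receptor, held 15890.2, 13282 and 16282 in the liver and 20653, 16957 and 20075 in the PBMC libraries and did not pass. Klf2, the factor that maintains S1pr1, went the other way with 3362, 3651 and 3016 in the liver and 1318, 1346 and 1181 in the PBMC libraries, without overlap (log2 1.38, SE 0.17, adjusted p = 1.65e-05). Gpr183, a receptor for oxysterols that guides cells within lymphoid tissue, was the other gene higher, with 6326, 6275 and 7187 in the liver and 4522, 4376 and 4349 in the PBMC libraries (log2 0.58, adjusted p = 0.000336). Of 17 genes of naive and quiescent cells, 6 were lower and 3 were higher, the latter Klf2, Btg1 and Btg2. Among those lower, Igfbp4, Klf3 and Satb1 differed by -0.89, -0.76 and -0.70, the last without a call when PBMC Treg 1, Liver Treg 1 or Liver Treg 2 was left out, whereas Tcf7 and Lef1 did not pass (0.13 and -0.23). The count lower was 2 without PBMC Treg 1, without Liver Treg 1 or without Liver Treg 2, and 3 in the fit of only the 2 groups.

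Bcl2, which encodes the survival factor that IL-2 and IL-7 maintain, held 3244, 3488 and 4678 in the liver and 8486, 7539 and 7749.8 in the PBMC libraries. Every liver library was below every blood library (log2 -1.08, SE 0.14, adjusted p = 2.47e-05). Of 18 genes for receptors of the common gamma chain family and related cytokines, 5 were lower and 0 higher. Il6st, the signalling chain gp130, was lower by 0.72 on the log2 scale, without overlap between its 3310.5, 3002 and 3560.3 in the liver and 5786, 5572 and 4912 in the PBMC libraries. Il4ra and Il6ra, also lower, had differences of -0.65 and -0.62, which did not pass without PBMC Treg 1 or without Liver Treg 1. Without PBMC Treg 1 the count lower was 1, and without Liver Treg 1, without Liver Treg 2 or in the fit of only the 2 groups it was 3. Il7r and Il2rg did not pass, with differences of -0.13 and -0.10. Of 20 genes of IL-2 and STAT5 signalling, 1 (Cish, a feedback inhibitor, 0.84) was higher and 2 (Bcl2 and Socs4) were lower, 15.0% of the list, beside 15.2% of all genes. Without PBMC Treg 1 or without PBMC Treg 2 the count higher in that list was 2.

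**Figure D3:**
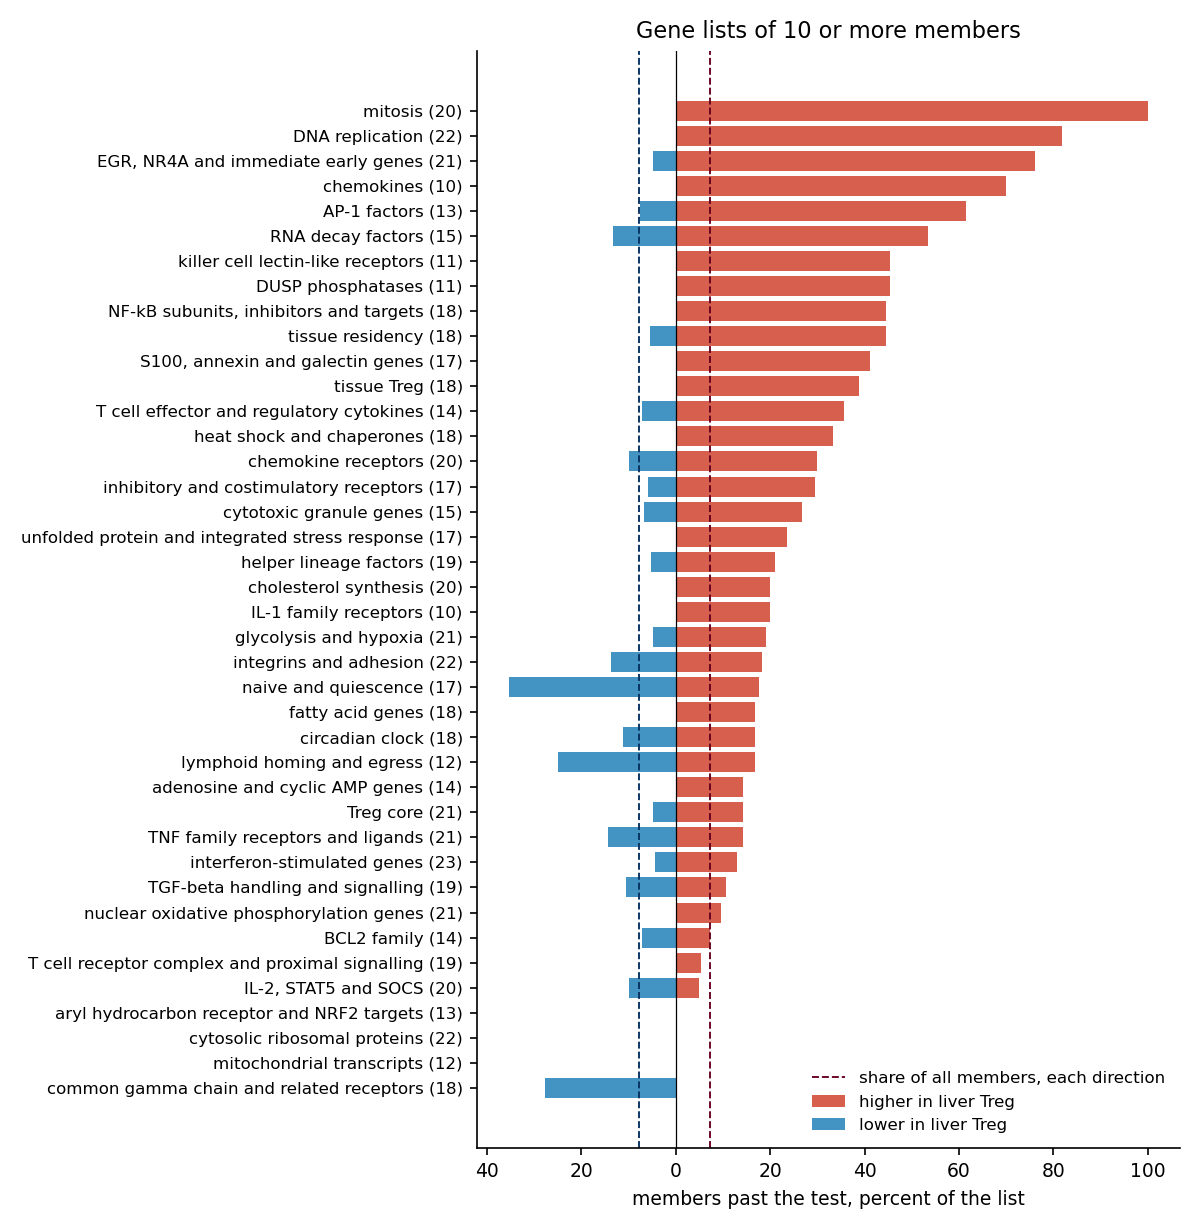
Percent of the genes of each list called higher or lower in liver Treg, for lists with at least 10 genes tested, with dashed lines at 7.33% higher and 7.91% lower for all genes. Mitosis, DNA replication and the immediate early lists stand far to the right of the line for genes higher, and the common gamma chain and naive lists have the most genes lower.

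No gene of 2 housekeeping lists was called. Of 22 genes for cytosolic ribosomal proteins, 0 were called, with a median of 0.07, and of 12 mitochondrial transcripts 0 were called, with a median of 0.03. In neither list did any gene have an unadjusted p under 0.05 in limma or a call in edgeR or DESeq2. Of 19 genes of the T cell receptor complex and its first signalling steps, 1 was higher and 0 lower. Hspa1a, the inducible chaperone HSP70, held 215, 1039 and 133 in the liver and 1.89, 4.04 and 0 in the PBMC libraries, with Liver Treg 2 far above the other liver libraries (log2 7.0, SE 1.14, adjusted p = 0.000275). Its near-identical neighbour Hspa1b held 138, 921 and 94.8 in the liver and 4.73, 22.2 and 4.10 in the PBMC libraries and lost its call without Liver Treg 2, and reads of the pair can be split between them. Of 18 heat shock and chaperone genes, 6 were higher and 0 lower, with 3 higher without Liver Treg 2 and 4 higher without Liver Treg 1, PBMC Treg 1 or PBMC Treg 3. Atf4, the factor of the integrated stress response, held 3211, 3651 and 3753 in the liver and 1247, 1667 and 1674 in the PBMC libraries, even within each tissue (log2 1.22, SE 0.13, adjusted p = 1.36e-06). Among circadian clock genes, Per1 and Bhlhe40 were higher by 2.84 and 3.44, 2 of the 3 higher and 2 lower of 18, of which 1 was lower without Liver Treg 1, Liver Treg 3 or PBMC Treg 1.

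Segments of the T cell receptor alpha locus were looked at after their values were seen. Of 46 J segments of the alpha chain (Traj), 33 were higher in liver Treg and 0 lower, with a median log2 difference of 1.01, and of 13 J segments of the beta chain (Trbj) 0 were called. The summed Traj counts were 7284, 6133 and 5762 in the liver libraries and 3538, 2783 and 2936 in the PBMC libraries, without overlap. Between 25 and 33 were higher with a library left out, and 20 in the fit of only the 2 groups. Liver Tconv had a median of 1.08 against PBMC Tconv for the same 46 segments, with 29 called higher. Trac, the constant segment of the same chain, held 12294, 12138 and 12004 in the liver and 12321, 8922 and 10516 in the PBMC libraries and did not pass.

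Markers of other cells moved with tissue in some lists. Platelet genes were mostly lower in liver Treg than in PBMC Treg: 6 of 7 were called lower and 0 higher, with log2 differences from -6.47 to -0.9. Their summed level (8 genes) was 50.4 to 96.5 in the liver libraries and 771.5 to 1343 in the PBMC libraries. Ppbp, a platelet chemokine, held 3.86, 2.02 and 2.08 in the liver and 351, 324 and 166 in the PBMC libraries (log2 -6.23, SE 0.58, adjusted p = 4.06e-07). Tubb1, the platelet tubulin, held 4.83, 6.05 and 0 in the liver and 405, 302 and 229.5 in the PBMC libraries, and Pf4, platelet factor 4, held 5.79, 1.01 and 14.6 in the liver and 142, 204 and 109 in the PBMC libraries. Among the largest decreases was Myl9, a myosin light chain abundant in platelets, which had 2 recovered reads over the liver libraries and 409 over the PBMC libraries, a 210.2-fold lower rate (95% interval 57.8 to 1742 for counting error). Some myeloid genes followed, with Ace, Ear2, Cd300e and Adgre4, genes of blood monocytes, lower by 5.59, 5.22, 5.18 and 3.94 on the log2 scale. The summed level of 14 macrophage and Kupffer cell genes was 338.8 to 1237 in the liver libraries and 2319 to 2766 in the PBMC libraries. Of 7 tested, 1 was higher (C1qb, 4.14) and 0 lower, 14.3% beside 15.2% of all genes. Their signs were mixed, with 3 of 7 positive and a median of -0.56. In the fit of only the 2 groups, 1 was higher and 2 were lower, Lyz2 (-2.73) and Csf1r (-2.34). Of 8 neutrophil genes, 3 were lower and 0 higher, but 1 was lower without Liver Treg 2, Liver Treg 3 or PBMC Treg 1 and 0 without PBMC Treg 2. S100a8 was at 0 in all liver libraries and at 51.1, 144 and 15.4 in the PBMC libraries, at least 23.3-fold lower against a floor of 3 reads per library, and its call was lost without PBMC Treg 2.

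Plasma cell genes went the other way, with 3 of 5 higher and 0 lower and a summed level of 2452 to 5651 in liver and 214.9 to 323.4 in PBMC. Jchain, which joins the units of IgA and IgM, held 2100.2, 4819.5 and 4849.6 in the liver and 21.8, 15.1 and 14.3 in the PBMC libraries (log2 7.69, SE 0.99, adjusted p = 2.11e-05). The summed level of 10 B cell genes overlapped between the tissues, at 9751 to 24144 in liver and 11534 to 16777 in PBMC, and 0 were called in limma, edgeR or DESeq2. Natural killer cell genes summed to 430.5 to 1533 in liver and 757.2 to 889.0 in PBMC, with 2 of 8 higher and 0 lower, and 1 higher without Liver Treg 2, Liver Treg 3, PBMC Treg 1 or PBMC Treg 2. Of 11 killer cell lectin-like receptor genes, 5 were higher and 0 lower, and 2 were higher without Liver Treg 2, without Liver Treg 3 or without PBMC Treg 1. Klrc1, an inhibitory receptor of the family with near-identical relatives, held 47.3, 159 and 159.5 in the liver and 11.3, 11.1 and 14.3 in the PBMC libraries, with Liver Treg 1 the lowest liver library. For hepatocytes, 3 of 29 listed genes were analysed here. Of these, Cyp2e1 held 1674, 207 and 68.8 in the liver and 70.0, 41.4 and 45.1 in the PBMC libraries, high above all in Liver Treg 1, Apoe held 1062, 1765 and 729.6 in the liver and 220.4, 314 and 485 in the PBMC libraries, and Ass1 did not pass. The calls of Cyp2e1 and Apoe were both lost without Liver Treg 1 or without PBMC Treg 2, that of Cyp2e1 also without PBMC Treg 3 and that of Apoe also without Liver Treg 2 or PBMC Treg 1. Serping1, which encodes the C1 inhibitor made by liver and stromal cells, had 582 recovered reads over the liver libraries and 3 over the PBMC libraries, a 188.7-fold ratio (95% interval 64.3 to 917.8). Red cell genes summed to 10598 to 28573 in liver and 40889 to 47240 in PBMC, with 0 of 8 called in limma, 1 in edgeR and 1 in DESeq2. In the limma fit of only the 2 groups 4 were lower. No gene of these lists was at 0 in all 6 libraries, and the part of RNA from such cells in the differences reported here was not tested.

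**Figure D4:**
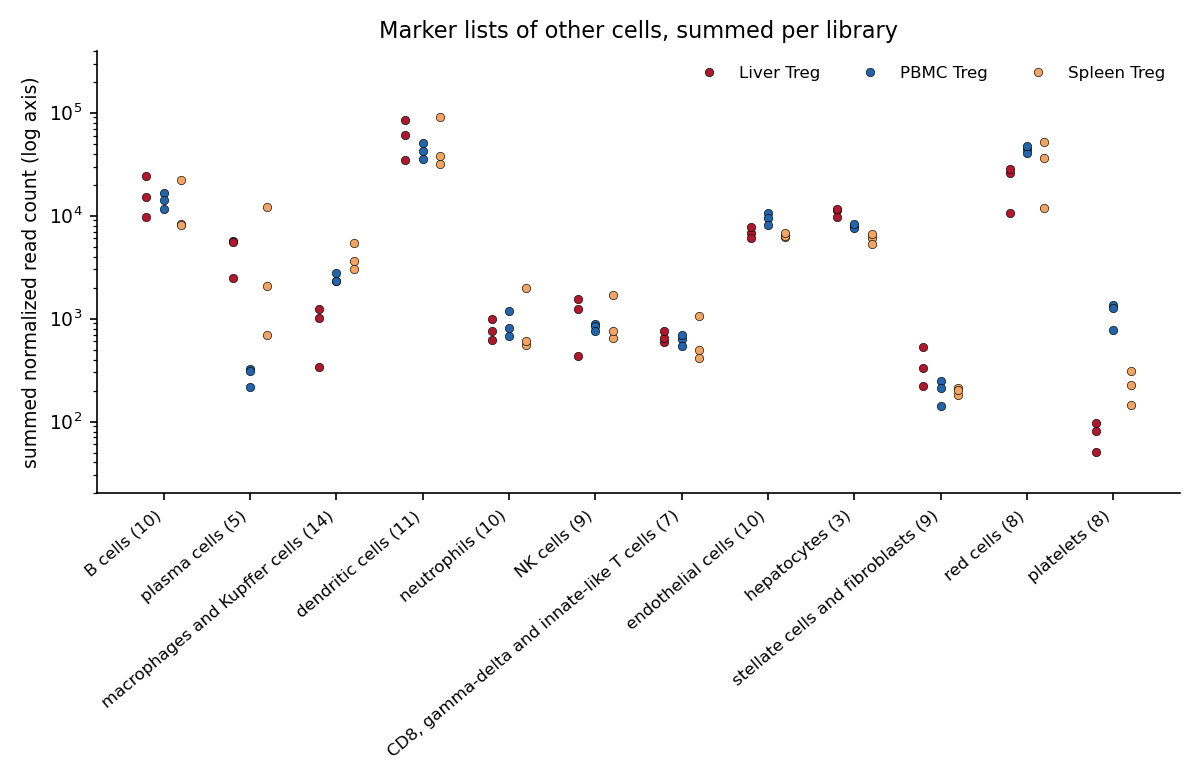
Summed normalized count on a log axis for marker lists of other cells, with 1 point per library for liver, PBMC and spleen Treg. Platelet sums are at 50.4 to 96.5 in liver and 771.5 to 1343 in PBMC, plasma cell sums are higher in liver, and B cell sums overlap.

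The same tissue comparison was made in Tconv, which shares no library with the Treg comparison. The Tconv libraries held Foxp3 unevenly, at 305, 23.1 and 492 in liver and 627, 13.7 and 29.7 in PBMC. In Tconv 864 genes were called (5.09%), 575 higher and 289 lower in liver. The count ranged from 479 without Liver Tconv 2 to 1182 without Liver Tconv 1, and was 506 without PBMC Tconv 3, 570 without PBMC Tconv 1 and 198 in the fit of only the 2 groups. The genes called in both, 599, were 23.1% of the Treg calls and 69.3% of the Tconv calls. Of these, 368 were higher in both, 228 were lower in both and 3 (Wnt3, Ctsw and Spin2c) had opposite signs. Of all Treg calls, 89.8% had the same sign in Tconv, a share that was not set beside the share over all genes. Fos was higher in liver Tconv by 5.74 on the log2 scale, Nr4a1 by 5.68, Tnfaip3 by 3.84 and Rgs1 by 3.97, beside 5.63, 4.77, 3.79 and 2.70 in Treg. The platelet gene Ppbp differed by -6.15 in Tconv and -6.23 in Treg.

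**Figure D5:**
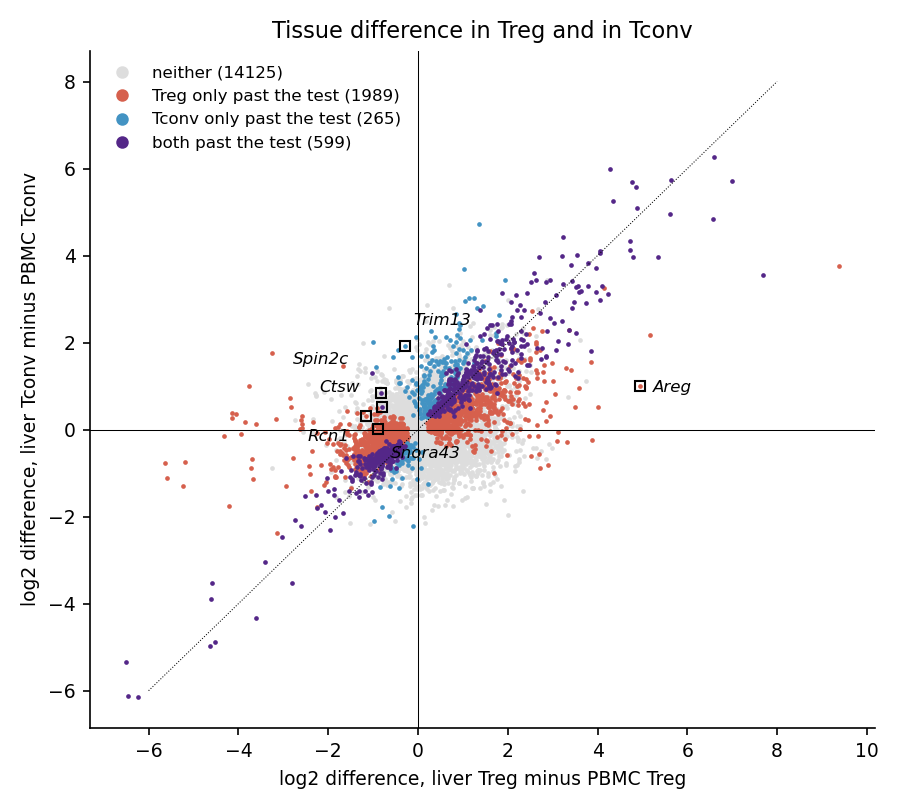
Liver minus PBMC log2 difference in Treg on the horizontal axis and in Tconv on the vertical axis, 1 point per gene. The 599 genes called in both lie along the diagonal apart from 3 in the opposite quadrants, 1989 were called in Treg alone and 265 in Tconv alone.

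The difference between the Treg and the Tconv effect was tested by an interaction term, and 6 genes passed (0.0353%). A gene called in 1 cell type and not in the other was therefore in nearly every case not shown to differ between them. In Areg alone of these 6 was the tissue difference more positive in Treg. It held 8.21, 5.76 and 15.9 in liver Tconv and 3.36, 6.33 and 3.07 in PBMC Tconv, which overlap, beside 329, 258 and 284 in liver Treg, so the Treg effect exceeded the Tconv effect by 3.95 on the log2 scale (SE 0.64, adjusted p = 0.0243). Trim13, a ubiquitin ligase of the endoplasmic reticulum, held 97.5, 85.7 and 114 in the liver and 162, 89.8 and 122 in the PBMC libraries among Treg, which overlap, and 356, 435 and 403 in liver Tconv and 105, 126 and 86.0 in PBMC Tconv. Liver was above PBMC in Tconv with no overlap, and the interaction was -2.22 (SE 0.29, adjusted p = 0.00292). Ctsw, the protease cathepsin W of cytotoxic cells, was lower in liver Treg, with 1459, 2143 and 1929 in the liver and 3128, 3359 and 3034 in the PBMC libraries, and higher in liver Tconv, with 3474, 4419 and 3178 against 2086, 3052 and 2595 (interaction -1.32, adjusted p = 0.00641). None of the 6 passed in the fit of only the groups compared, where 0 genes had an adjusted p under 0.05 and 1138 an unadjusted p under 0.05, and DESeq2 on recovered reads called 92. None passed a test for a difference larger than 1 log2 unit.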

How the data were processed

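Poly(A) RNA of pooled, sorted cells was amplified with SMARTer and sequenced paired-end, per the labels' protocols. Trimmomatic 0.32, TopHat2 2.0.11, Bowtie2 2.2.2, SAMtools 0.1.19, HTSeq 0.6.1p1 and the build GRCm38 are named, without roles, per the submitters' processing notes. The authors deposited 1 table of 35612 genes by 24 libraries, a signal in normalized counts, here called the normalized count. The method of scaling, the annotation release and the strand setting are not given in the sources used here. Reads carry no molecular identifiers, so intervals cover counting error only.

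Symbols and gene coordinates came from GENCODE M21 (GRCm38) and matched 34645 identifiers, and promoter sequences came from RefSeq (GRCm38.p6), which held 11360 of the 16978 genes. log2(normalized count + 1) was fitted in limma 3.58.1 (R 4.3.3) with a variance trend over 24 libraries in 8 groups, 16 residual degrees of freedom and 18576 genes at 10 or more in at least 3 libraries. P-values were adjusted by the Benjamini-Hochberg method over these, and 90 of the 1598 fitted genes outside the comparison's own minimum also passed. The liver minus PBMC difference was tested in Treg and in Tconv, and the difference between them as an interaction. Fold changes are on the log2(value + 1) scale, which understates those of low genes. The main test was checked on simulated data before use.

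The values are whole multiples of a step in each library, and dividing by it gave whole reads, within 0.001, for 100% of values. These reads were used for edgeR 4.0.16 and DESeq2 1.42.0 as alternatives, which called 2657 and 2906 genes in the Treg comparison. In Liver Treg 2 and PBMC Treg 2 the step is so near 1 that the recovery could not be checked independently.

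The comparison and the 54 gene lists were chosen with earlier results of these data known, and membership of a list is no independent support. Genes were named by rule: the 14 largest increases and the 14 largest decreases among called genes whose groups do not overlap and whose higher group averages 50 or more, leaving out antigen receptor segments, then Foxp3, Il2ra, Ctla4, Cd4 and Thy1, up to 5 called genes of each function list, up to 3 genes of each list of other cells, and the largest differences between cell types. A further 37 genes, 18 called and 19 not, were named after their values were seen. Each list is given by its counts and median, with no test of the list. Some genes are not reported here.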

Additional observations from a re-analysis of the deposited data

Results flagged for a closer look

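The difference between the liver effect in Treg and in Tconv passed the interaction test in 6 genes, which are given here as values. For Areg it was 3.948 on the log2 scale (SE 0.64, limma adjusted p = 0.0243), and over 24 alternatives it ranged from 3.47 to 4.32 and passed in 16, failing without Liver Treg 1, Liver Treg 2, PBMC Treg 1 or PBMC Tconv 2, in edgeR on recovered reads, with a pseudocount of 0.1, in the fit of only the groups compared and in the test for more than 1 log2 unit. For Trim13 it was -2.215 (adjusted p = 0.00292) and for Ctsw -1.321 (adjusted p = 0.00641), each passing in 22 of 24. Spin2c, a spindlin family gene, had -1.658 (adjusted p = 0.0243) with 54.0, 51.4 and 60.5 in the liver and 114, 112 and 74.8 in the PBMC libraries in Treg and 118, 120.1 and 89.7 in liver Tconv beside 47.0, 69.6 and 67.5 in PBMC Tconv, opposite directions that passed in 16 of 24. Rcn1, a calcium-binding protein of the endoplasmic reticulum, had -1.486 (adjusted p = 0.0243) and passed in 14. The small nucleolar RNA gene Snora43 had -0.911 (adjusted p = 0.0285) and passed in 11.

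Rcn1 held 262, 335 and 368 in the liver and 772, 711 and 666 in the PBMC libraries among Treg, lower in every liver library, and 135, 203 and 234 in liver Tconv beside 159, 131 and 159 in PBMC Tconv, which overlap. Snora43 held 126, 119.9 and 124 in the liver and 226, 248 and 215 in the PBMC libraries among Treg and 270, 213 and 264 in liver Tconv beside 239, 244 and 251 in PBMC Tconv, which overlap. No gene of the 6 passed in the fit of only the groups compared or in the test for more than 1 log2 unit.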

How the results depend on the processing

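No called value of a named gene changed sign under any of 18 alternatives. Of 168 called genes named by rule, 43 kept the call in all 18, and 351 of their 3019 values (11.6%) lost it, most often in the test for more than 1 log2 unit (125), without PBMC Treg 1 (39) and without Liver Treg 2 (38). The Treg count of 2588 was 85 in the test for more than 1 log2 unit (68 higher, 17 lower) and 1392 in the fit of only the 2 groups (790 higher, 602 lower, with 1244 of the 2588 kept). With 1 library left out it ranged from 1509 to 2667 (708 to 1388 lower and 791 to 1279 higher). Quantile scaling gave 1197 higher and 1818 lower. The Tconv count of 864 was 51 and 198 in the first 2 of these fits and ranged from 479 to 1182 with a library left out. The 6 differences between cell types became 0 in each of those 2 fits, 92 in DESeq2, 13 with a pseudocount of 10, and 2 to 24 with a library left out.

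Liver and PBMC Treg libraries of equal number had correlations of deviations of -0.4, 0.044 and -0.24, so the numbers were not taken as pairs. With the replicate number as a block within cell type, limma called 2839 genes in Treg, 1084 in Tconv and 22 for the difference. No setting tells liver residence from isolation, or Treg from RNA of other cells in the sort. The median SE was 0.195 over all genes and 0.493 in the fifth of genes with the lowest levels, where 6.95% were called, so changes in scarce transcripts were less detectable.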
